A study of Mus musculus with 10 samples.

Results

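The 7 genes described here are the interferon-induced transmembrane genes of the mouse, Ifitm1, Ifitm2, Ifitm3, Ifitm5, Ifitm6, Ifitm7 and Ifitm10. They were taken by name from the GENCODE M21 annotation of mm10, where they are 7 of 21938 protein-coding genes. For each gene, every peak within 2 Kb of the gene start was collected, where the start is the most upstream annotated base. Ifitm1, Ifitm2, Ifitm3, Ifitm5 and Ifitm6 lie together on chromosome 7, and for these 5 genes all peaks from 50 Kb before the first gene to 50 Kb after the last were collected as well. Ifitm10 lies elsewhere on chromosome 7 and Ifitm7 on chromosome 16.

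The study made maps of long-range chromatin contacts in F123 cells, mouse embryonic stem cells that are hybrids of the castaneus and S129/SvJae strains. The data used here are its 2 peak lists from these cells, H3K4me3 ChIP-seq (2 replicates of 2000000 cells, with input controls) and ATAC-seq (2 replicates of 100000 cells). The cells were grown with LIF on irradiated CF1 mouse embryonic fibroblasts and passaged once without feeders, and they stand for a single line. The labels name no edit of the cells and no interferon treatment. The contact data and the input samples were not analysed here.

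Each list is a single set of replicated peaks, so no value below has a spread between replicates, no test between groups was possible, and the depth of each library is unknown. H3K4me3, trimethylation of lysine 4 of histone H3, marks the starts of genes that are active or poised. ATAC-seq cuts open chromatin with the Tn5 transposase. The H3K4me3 list held 33487 peaks, each with a fold enrichment over the background of the peak caller and a −log10 q value. The ATAC-seq list held 179109 peaks with positions only, so the width of a peak is the only measure of its size. Over all protein-coding genes, 66.4% had an H3K4me3 peak within 2 Kb of the gene start. As a check of the cell type, 8 of 10 embryonic stem cell markers had such a peak, with Sox2 (42.9-fold) and Pou5f1 (35.1-fold) highest, and Esrrb and Fgf4 had none at the annotated gene start. Of 10 fibroblast markers, 6 had such a peak, with Pdgfra (25.9-fold) and Col1a2 (20.4-fold) highest and none at Col3a1 and Col6a3. Both counts are near the share of all coding genes and so say little of the cell type. The part of feeder cells in these peaks was not tested.

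IFITM proteins are small membrane proteins with a CD225 domain, and several of them block the entry of enveloped viruses at the cell or endosome membrane. Ifitm1, Ifitm2 and Ifitm3 are induced by interferon through response elements near their starts, but are also transcribed without it in pluripotent cells. Ifitm3, also called fragilis, is expressed with Ifitm1 in the cells that become primordial germ cells, and Ifitm5 is known from bone-forming cells.

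The bases just before the RefSeq start of the 5 clustered genes are shown because the genes differ in the peaks found there. Each run begins 250 bases before that start and stops at the next GENCODE exon. In Ifitm1 and Ifitm6, where longer transcripts begin farther upstream, the runs lie inside the gene, before the starts of Ifitm1-202 and Ifitm6-201. It is written in the direction of the gene on GRCm38.p6, the build of mm10. Capitals mark matches to 9 motifs searched on both strands, namely the core of the interferon-stimulated response element (ISRE; GAAA, any 2 bases, GAAA), the interferon-gamma activated site (TTC, any 3 bases, GAA), the octamer ATGCAAAT, the SOX motif AACAATG, the ESRRB motif TCAAGGTCA, the KLF motif GGGTGTGG, the GC box GGGCGG, the CCAAT box CCAAT and the TATA box TATAAA.
Ifitm2, chr7:140955988-140956211, minus strand: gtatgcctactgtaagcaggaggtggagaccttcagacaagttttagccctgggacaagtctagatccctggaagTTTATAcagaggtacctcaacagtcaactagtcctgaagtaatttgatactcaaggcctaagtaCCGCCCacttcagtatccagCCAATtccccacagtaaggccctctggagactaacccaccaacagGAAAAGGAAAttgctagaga
Ifitm3, chr7:141010771-141010994, minus strand: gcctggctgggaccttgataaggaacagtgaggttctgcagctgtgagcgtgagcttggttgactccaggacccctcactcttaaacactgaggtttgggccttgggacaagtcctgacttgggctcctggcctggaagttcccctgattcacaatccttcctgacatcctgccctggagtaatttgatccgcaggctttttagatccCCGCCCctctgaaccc
Ifitm1, chr7:140967826-140968027, plus strand: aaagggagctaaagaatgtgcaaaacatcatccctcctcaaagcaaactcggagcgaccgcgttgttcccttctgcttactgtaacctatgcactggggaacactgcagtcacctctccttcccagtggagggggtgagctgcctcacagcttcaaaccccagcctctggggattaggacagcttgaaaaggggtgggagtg
Ifitm5, chr7:140950292-140950493, minus strand: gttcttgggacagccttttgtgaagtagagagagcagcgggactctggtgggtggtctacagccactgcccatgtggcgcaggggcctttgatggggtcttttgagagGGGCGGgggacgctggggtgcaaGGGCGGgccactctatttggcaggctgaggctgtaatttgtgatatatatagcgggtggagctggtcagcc
Ifitm6, chr7:141016909-141017142, minus strand: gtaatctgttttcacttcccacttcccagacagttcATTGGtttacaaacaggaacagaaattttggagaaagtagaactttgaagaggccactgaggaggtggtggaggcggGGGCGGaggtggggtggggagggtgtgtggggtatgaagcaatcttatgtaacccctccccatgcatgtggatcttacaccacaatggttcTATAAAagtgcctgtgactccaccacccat

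The run before Ifitm2 held an ISRE core at 140955998 to 140956007, 11 bases before the GENCODE start. In Ifitm3 no ISRE core lay upstream, but 2 lay in the first exon, at 141010733 to 141010742 and at 141010716 to 141010725. Both are in the following 30 bases, shown for that reason with the ISRE cores in capitals.
Ifitm3, chr7:141010714-141010743, minus strand: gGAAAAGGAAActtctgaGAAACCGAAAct

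An ISRE core was found in 3.44% of the 32851 promoters of the RefSeq table, each 300 bases from 250 before to 50 after the start. At least 2 such cores, as in Ifitm3, were found in 74 of them (0.225%). An interferon-gamma activated site overlapped the second core of Ifitm3, at 141010723 to 141010731, and this motif was in 8.3% of all promoters. Ifitm6 had that site too, at 141016894 to 141016902, inside the first exon of Ifitm6-201. The windows of Ifitm1 and Ifitm5 held neither interferon motif, which says only that these letters are missing from 300 bases. For Ifitm1, the ATAC-seq peak over the start of Ifitm1-202 (140967789 to 140968415) did hold an interferon-gamma activated site in its middle 200 bases. That motif was in 5.06% of the middles of all ATAC-seq peaks. Of the clustered genes, GC boxes were found in Ifitm2, Ifitm3, Ifitm5 and Ifitm6, against 35.7% of all promoters. A TATA box was found in Ifitm2 and Ifitm6, against 13.6% of all promoters. In Ifitm2 its letters were on the strand opposite to the gene, 144 bases before the GENCODE start. In Ifitm6 they were on the strand of the gene, at 141016933 to 141016938. A KLF motif was found in Ifitm1, at 140968039 to 140968046 beyond the start of Ifitm1-202, and the octamer, SOX and ESRRB motifs were in none of the 5 windows. All these matches are letters in the reference of strain C57BL/6J, not in the genomes of the F123 cells, and none was tested for binding.

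Of the 7 Ifitm genes, 5 (71.4%) had an H3K4me3 peak within 2 Kb of the start, against 66.4% of all protein-coding genes, and 6 (85.7%) had an ATAC-seq peak, against 74.6%. Both shares are near those of all coding genes. The genes fell into 3 kinds. Ifitm1, Ifitm2, Ifitm3, Ifitm7 and Ifitm10 had peaks of both lists. Ifitm5 had an ATAC-seq peak alone, and Ifitm6 had no peak of either list. The start itself lay inside an H3K4me3 peak in Ifitm2, Ifitm3 and Ifitm7, which is 3 of 7, against 61.1% of all protein-coding genes.

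**Figure D1:**
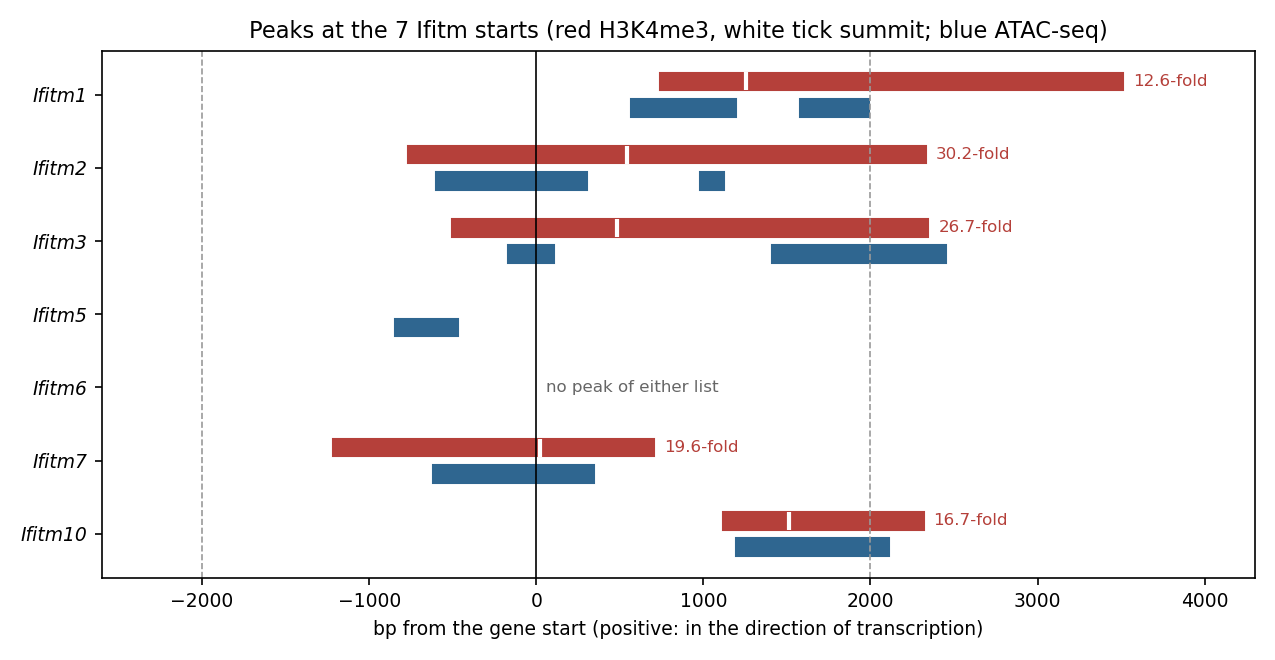
Peaks within 2 Kb of the start of each Ifitm gene, drawn in bp from the gene start with the direction of transcription to the right; dashed lines mark 2 Kb, red bars are H3K4me3 peaks with their summit as a white tick and their fold enrichment, and blue bars are ATAC-seq peaks. Ifitm2, Ifitm3 and Ifitm7 have both marks over the start, Ifitm1 and Ifitm10 only downstream of it, Ifitm5 has 1 ATAC-seq peak upstream and Ifitm6 has none.

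Ifitm2, on the minus strand at chr7:140954837-140955987, had the strongest H3K4me3 peak of the family. The peak ran from 140953655 to 140956752 (3098 bp), with a fold enrichment of 30.2 and with 364 as its −log10 q. It covered the whole gene and 765 bp upstream of the start, and its summit lay 545 bp downstream of the start, in the intron. Of all coding genes marked within 2 Kb of the start, 48.8% had a lower fold at their strongest peak, so that the highest value of the family sat at the middle of the range. In summed width, 77.0% of these genes had less. An ATAC-seq peak of 902 bp (140955683 to 140956584) lay over the start and held the ISRE core shown above, and another of 148 bp (140954862 to 140955009) lay inside the gene. Another coding gene on the same strand, Gm45717, starts 50 bp from Ifitm2 and overlaps both Ifitm2 (1101 bp) and Ifitm5 (1070 bp), so that the peaks at the start of Ifitm2 belong equally to Gm45717.

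Ifitm3, on the minus strand at chr7:141009586-141010770, had an H3K4me3 peak of 2849 bp from 141008424 to 141011272. Its fold enrichment was 26.7 and its −log10 q 268, with 40.0% of the marked protein-coding genes lower in fold. Like that of Ifitm2, the peak covered the whole gene, with its summit 481 bp downstream of the start. The ATAC-seq peak over the start was 275 bp wide (141010667 to 141010941) and held both ISRE cores. The other ATAC-seq peak at Ifitm3 was the wider of the pair, at 1039 bp (141008320 to 141009358), and lay wholly beyond the 3′ end of the gene. It was also the widest ATAC-seq peak of the cluster window, with 95.8% of the list narrower.

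Ifitm1, on the plus strand at chr7:140967221-140969825, had its H3K4me3 peak 743 bp downstream of the gene start, from 140967964 to 140970731 (2768 bp). With a fold of 12.6 and a −log10 q of 90.5 it was the weakest of the 5, and 12.5% of the marked genes were lower. Ifitm1 has 3 annotated transcripts. The peak covered the starts of Ifitm1-202 (140968028) and Ifitm1-201 (140968040), and missed that of Ifitm1-203 (140967221), which sets the gene start. An ATAC-seq peak of 627 bp (140967789 to 140968415) lay over the same pair of starts and over all the bases shown above for Ifitm1, and an ATAC-seq peak of 412 bp (140968802 to 140969213) lay in an intron.

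Ifitm5, on the minus strand at chr7:140948958-140950291, had no H3K4me3 peak within 2 Kb. The nearest was that of Ifitm2, whose closest base lay 3364 bp upstream. Its ATAC-seq peak of 377 bp (140950763 to 140951139) lay 472 to 848 bp upstream of the start, in an intron of Gm45717, and shared no base with an H3K4me3 peak. Ifitm6, on the minus strand at chr7:141015699-141017924, is the only clustered gene without a peak of either list. None of its 3 transcript starts had a peak within 2 Kb. The nearest H3K4me3 peak was that of Ifitm3, 6652 bp away, and the nearest ATAC-seq peak, of 210 bp (141021688 to 141021897), lay 3764 bp upstream.

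Both genes outside the cluster were marked. Ifitm7, on the minus strand at chr16:13981699-13986888, had an H3K4me3 peak of 1925 bp (13986182 to 13988106) with a fold of 19.6, a −log10 q of 216 and a summit 25 bp from the start, beside 1 ATAC-seq peak of 961 bp (13986543 to 13987503). The coding gene 2900011O08Rik starts 284 bp away on the opposite strand, inside the same H3K4me3 peak, so that the peak cannot be assigned to either gene. Ifitm10, on the minus strand at chr7:142325837-142373753, had an H3K4me3 peak of 1204 bp (142371435 to 142372638) with a fold of 16.7 and a −log10 q of 156, 1115 bp downstream of the gene start. It covered the starts of Ifitm10-201, Ifitm10-202 and Ifitm10-206 and missed those of Ifitm10-203, Ifitm10-204 and Ifitm10-205. An ATAC-seq peak of 917 bp (142371641 to 142372557) lay over the same 3 starts. Both peaks also lie within another coding gene on that strand, Gm49369, which starts 8914 bp upstream. In both Ifitm1 and Ifitm10, therefore, peaks of both lists marked internal starts and not the most upstream one.

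By fold enrichment the marked genes ran from Ifitm2 and Ifitm3 through Ifitm7 and Ifitm10 to Ifitm1, from 30.2 to 12.6, with a median of 19.6. Over all marked protein-coding genes the median was 30.5, and the middle 50% ran from 20.2 to 40.1. With no spread between replicates, it cannot be said which neighbours in this order differ. The genes whose peaks were most like those of Ifitm2, by the summed width and highest fold of H3K4me3 and the summed width of ATAC-seq, were Ncoa4 (distance of 0.0839 SD), Nrd1 (0.0921) and Lpar6 (0.0967), among 14468 genes with a peak of each kind and in 1 list each, where the median distance was 1.3. Gm45717, which has the same peaks as Ifitm2, was left out of this ranking.

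**Figure D2:**
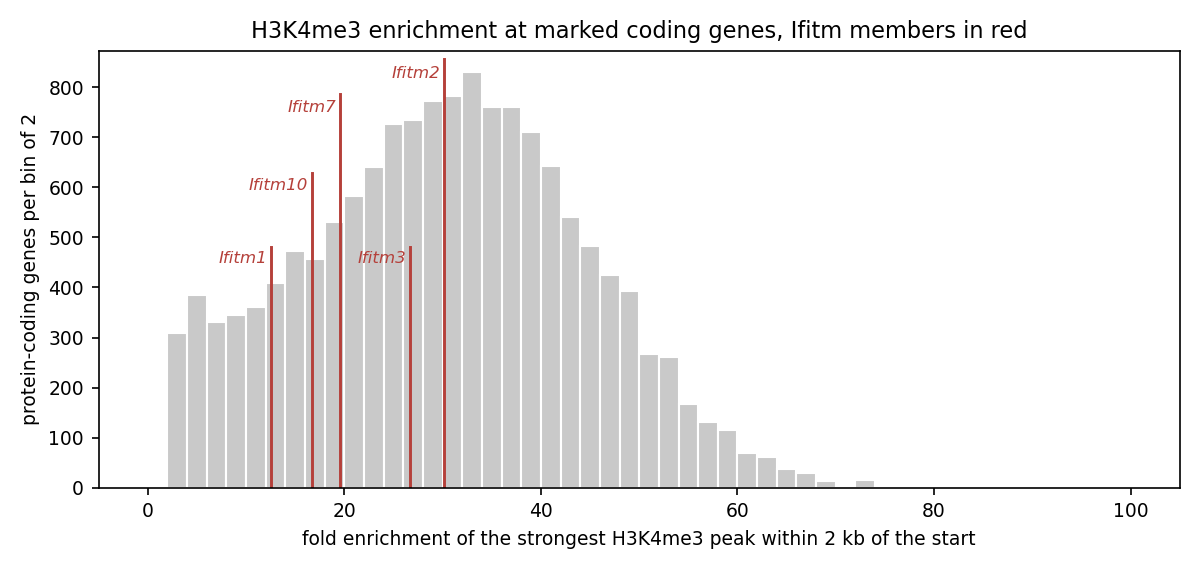
Number of protein-coding genes (vertical axis) by the fold enrichment of their strongest H3K4me3 peak within 2 Kb of the start (horizontal axis, bins of 2), over the 14576 genes with such a peak; red lines mark the 5 Ifitm genes that have one. Ifitm2 sits at 30.2, beside the median of 30.5, and the other 4 lie below it.

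The Ifitm starts were poor in CpG, the dinucleotide that is dense at most marked starts. The ratio of observed to expected CpG within 500 bp of the gene start was 0.15 in Ifitm10, 0.19 in Ifitm1, 0.21 in Ifitm5, 0.23 in Ifitm6, 0.3 in Ifitm2, 0.35 in Ifitm3 and 0.37 in Ifitm7. Over the coding genes that carried an H3K4me3 peak, the ratio had a median ratio of 0.71 (middle 50% from 0.55 to 0.83) and over those without one a median of 0.16 (0.1 to 0.25). All 7 genes thus lay below the middle 50% of the marked genes, although 5 of them were marked. Of the protein-coding genes with a ratio under 0.25, 10.9% had an H3K4me3 peak within 2 Kb, and of those from 0.25 to 0.5, 58.6%. In the lower class, Ifitm1 and Ifitm10 had a peak and Ifitm5 and Ifitm6 had none, and in the upper class Ifitm2, Ifitm3 and Ifitm7 all had one. The internal starts inside the peak of Ifitm10 had ratios of 0.6 to 0.67, well above that of its gene start, while those of Ifitm1 had 0.26, so that only in Ifitm10, of the 5 marked genes, did the marked starts reach the middle 50% of marked genes.

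**Figure D3:**
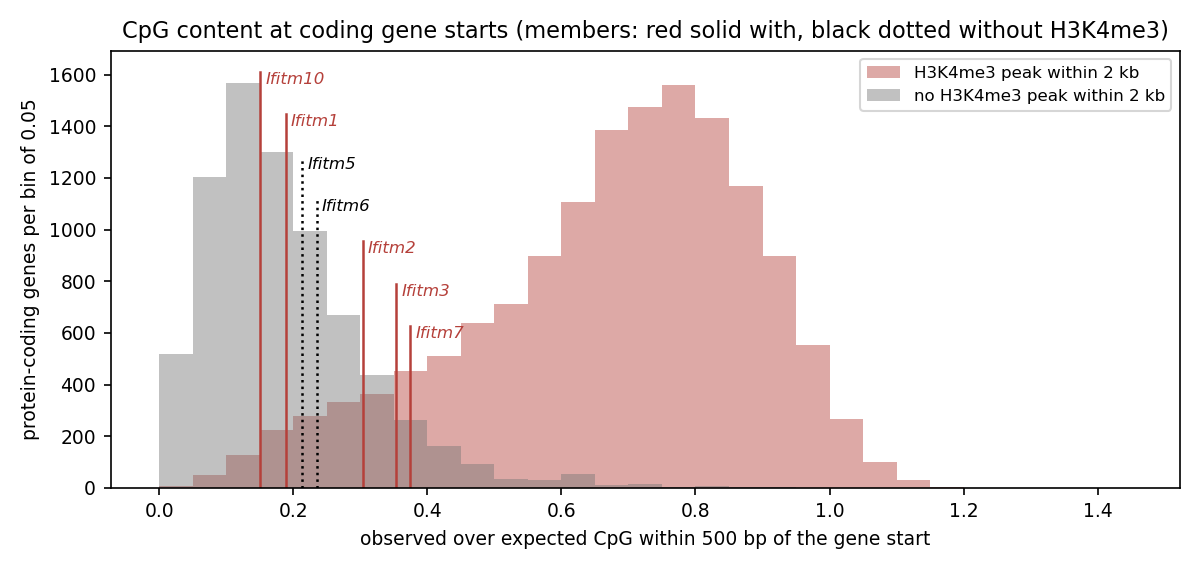
Number of protein-coding genes (vertical axis) by the observed over expected CpG ratio within 500 bp of the gene start (horizontal axis, bins of 0.05), in red for genes with and in grey for genes without an H3K4me3 peak within 2 Kb; lines mark the Ifitm genes, solid red with and dotted black without a peak. All 7 lines, from 0.15 to 0.37, lie left of most of the red distribution.

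Members of a gene family can share reads, since a read that fits several places may be dropped or placed at random. Between coding sequences, identity was highest for Ifitm1 and Ifitm7 (89.3% of 318 aligned bases), followed by Ifitm1 with Ifitm2 and with Ifitm3 (81.4% each), and was lowest for Ifitm1 and Ifitm5 (55.5%). Of all words of 31 bases within 2 Kb of the start, the share found once in mm10 was 73.3% at Ifitm1, 88.2% at Ifitm2, 88.8% at Ifitm6, 91.8% at Ifitm3, 93.2% at Ifitm7, 99.1% at Ifitm5 and 100.0% at Ifitm10. The unmarked Ifitm5 and Ifitm6 thus lay among the marked genes in this share. The part of repeated sequence in the heights of the peaks, or in their absence, was not tested.

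The cluster window ran over chr7:140898958-141067924 (168967 bp) and held 12 H3K4me3 peaks and 32 ATAC-seq peaks. Of 14565 autosomal windows of this length, 2.92% had at least as many H3K4me3 peaks and 4.86% at least as many ATAC-seq peaks, with medians of 1 and 9. The window also holds 11 starts of coding genes. Among the 118 windows with at least as many coding starts, 67.8% reached its count of H3K4me3 peaks and 53.4% its count of ATAC-seq peaks, with medians of 14 and 32. Against windows as gene-dense or denser, its H3K4me3 count was thus below the median and its ATAC-seq count at the median.

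**Figure D4:**
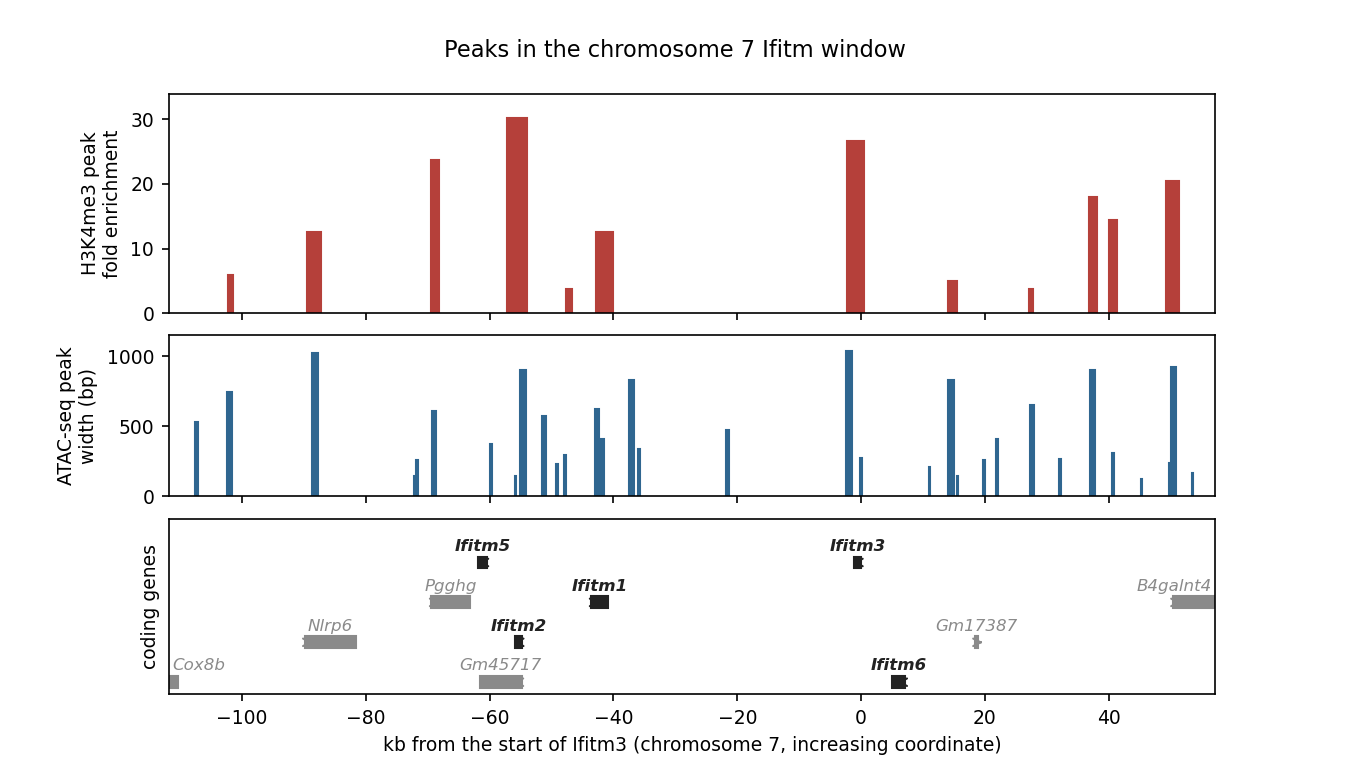
The chromosome 7 window in Kb from the start of Ifitm3; the upper panel gives each H3K4me3 peak at its width with its fold enrichment as height, the middle panel each ATAC-seq peak with its width in bp as height, and the lower panel the coding genes, Ifitm genes in black and neighbours in grey, with an arrow at each start. The tallest H3K4me3 bars are those of Ifitm2 (30.2) and Ifitm3 (26.7), and no H3K4me3 peak lies in the 37692 bp between those of Ifitm1 and Ifitm3.

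All 12 H3K4me3 peaks of the window shared at least 1 base with an ATAC-seq peak, and 17 of the 32 ATAC-seq peaks shared a base with an H3K4me3 peak. Such overlap is common, since 32347 of the 35901 autosomal bins of 5 Kb with an H3K4me3 peak also held an ATAC-seq peak. Of the 136498 autosomal bins with an ATAC-seq peak, the same 32347 held an H3K4me3 peak. Of the H3K4me3 peaks, 6 were within 2 Kb of the start of a coding gene and 6 farther, and of the ATAC-seq peaks 12 and 20. By annotation, the summits of 6 H3K4me3 peaks lay between genes, 4 in introns, 1 in a UTR and 1 in a coding exon. The middles of 24 ATAC-seq peaks lay between genes. The same splits by distance and by place were not made over all peaks, so these counts only describe the window. The H3K4me3 peaks covered 12.5% of the window and the ATAC-seq peaks 9.04%.

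The starts of Ifitm2 and Ifitm1 face away from each other over 11234 bp. Wholly inside the space between them lay 3 ATAC-seq peaks and 1 weak H3K4me3 peak. That H3K4me3 peak (140963090 to 140964147, 1058 bp) had a fold of 3.73 and a −log10 q of 10.3, and its nearest coding start, that of Ifitm1, was 3074 bp away. Its summit lay 46919 bp from the start of Ifitm3, a promoter from which, among others, the study displayed contacts. Whether this peak has a contact with Ifitm3 was not examined here. The middle 200 bases of the 3 ATAC-seq peaks are shown, since they are the open sites between both marked promoters, with matches to the same 9 motifs in capitals.
572 bp peak, chr7:140959423-140959622, plus strand: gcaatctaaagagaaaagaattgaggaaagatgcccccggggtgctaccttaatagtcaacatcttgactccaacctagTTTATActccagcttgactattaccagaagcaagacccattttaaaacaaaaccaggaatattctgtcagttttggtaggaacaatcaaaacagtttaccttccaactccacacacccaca
234 bp peak, chr7:140961537-140961736, plus strand: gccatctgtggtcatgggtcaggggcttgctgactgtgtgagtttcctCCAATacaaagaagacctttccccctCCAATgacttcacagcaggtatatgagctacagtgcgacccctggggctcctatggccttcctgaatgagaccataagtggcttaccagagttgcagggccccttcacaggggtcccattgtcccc
297 bp peak, chr7:140962855-140963054, plus strand: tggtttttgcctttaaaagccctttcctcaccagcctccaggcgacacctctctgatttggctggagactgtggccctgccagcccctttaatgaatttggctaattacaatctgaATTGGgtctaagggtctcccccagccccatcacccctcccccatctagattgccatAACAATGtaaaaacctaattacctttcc

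None of the 3 held an ISRE core or an interferon-gamma activated site in these bases, motifs found in 1.51% and 5.06% of the middles of the 178722 ATAC-seq peaks on chromosomes 1 to 19, X and Y. Over the middles of all 32 ATAC-seq peaks of the window, an ISRE core was in 3 and an interferon-gamma activated site in 5. Both motifs were in the peak over the start of Ifitm3 and in a peak far from coding starts (141042727 to 141042994). The peak of 572 bp (140959237 to 140959808) held a TATA box, against 6.43% of all, and it also contains the start of a predicted RefSeq transcript of Ifitm2, at 140959686, with no H3K4me3 peak over it. The peak of 234 bp (140961520 to 140961753) held 2 CCAAT boxes, and the peak of 297 bp (140962807 to 140963103) held a CCAAT box and a SOX motif. A CCAAT box was in 24.3% and a SOX motif in 2.9% of all the middles. Only the peak of 297 bp shared bases with the weak H3K4me3 peak.

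Between the starts of Ifitm1 and Ifitm3, 43549 bp apart, the only H3K4me3 peak wholly inside was that of Ifitm1 itself, beside 6 ATAC-seq peaks. Past the peaks at Ifitm1 came ATAC-seq peaks of 829 bp (140973237 to 140974065), 336 bp (140974774 to 140975109) and 474 bp (140988989 to 140989462), each more than 2 Kb from any coding start. From there to the wide peak at the 3′ end of Ifitm3, 18857 bp held no ATAC-seq peak, the longest such stretch of the window. Between the starts of Ifitm5 and Ifitm2 (5696 bp) lay 2 ATAC-seq peaks wholly inside, and between those of Ifitm3 and Ifitm6 (7154 bp) none. Into the latter space the peaks over the start of Ifitm3 reached 171 bp (ATAC-seq) and 502 bp (H3K4me3). The clustered genes therefore showed 2 marked blocks, Ifitm2 with Ifitm1 and Ifitm3 alone, with unmarked Ifitm5 and Ifitm6 at the outer ends.

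Of the 6 other coding genes with a start in the window, H3K4me3 peaks lay within 2 Kb in 4 and ATAC-seq peaks in 5. Both counts are near the shares of all protein-coding genes, 66.4% and 74.6%. On the Ifitm5 side these were Pgghg (23.7-fold) and Nlrp6 (12.6-fold), while Cox8b had neither. Gm45717 shares the peaks of Ifitm2. On the Ifitm6 side, B4galnt4 had a peak of 20.5-fold and Gm17387 an ATAC-seq peak alone. Beyond Ifitm6, H3K4me3 peaks more than 2 Kb from coding starts lay at 141024766 to 141026281 (4.93-fold), 141037889 to 141038608 (3.8-fold), 141047531 to 141048888 (18.0-fold) and 141050780 to 141052092 (14.4-fold). The first of them was 2850 bp from the start of Gm17387, and the last lay over the start of the pseudogene Gm45299.

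The study scored contacts between bins of 5 Kb and set apart pairs with an H3K4me3 peak in both bins (AND) or in 1 bin (XOR). Laid out in the same way, the H3K4me3 peak of Ifitm3 touched 2 bins, from 141005001 to 141015000. Of the 31 bins of the window at least 10 Kb from these, 15 held an H3K4me3 peak, so that their pairs with Ifitm3 were of the AND kind, and 16 held none and gave XOR pairs. Of the latter, 7 held an ATAC-seq peak. The last of the bins (141065001 to 141070000) reaches past the window, and the H3K4me3 peak counted in it lies beyond the window's end. Over all autosomal bins without an H3K4me3 peak, 22.8% held an ATAC-seq peak. The window was chosen around genes, and the difference was not tested.

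For context, the Ifitm genes were set beside other groups by the same measure. Of 30 interferon-stimulated effectors, with Mx2 counted although it is a polymorphic pseudogene in the annotation, H3K4me3 peaks were found within 2 Kb in 16 and ATAC-seq peaks in 27, with a median fold of 16.4 over those marked. The highest were Adar (50.2-fold), an RNA-editing enzyme, and Trim25 (27.5-fold), a ubiquitin ligase of RNA sensing, and Isg20, a nuclease, and Ifit1, which binds viral RNA, had no H3K4me3 peak but had ATAC-seq peaks. In 12 of the 30, as in Ifitm5, the start had an ATAC-seq peak alone. Over all protein-coding genes the shares were 66.4% and 74.6%, and 1898 of 21938 had an ATAC-seq peak alone. Peaks of both lists were at 14468 of them, and the median fold over those with H3K4me3 was 30.5. All 16 receptor and signalling genes had peaks of both lists, with a median of 32.7 and Jak1 (73.6-fold) and Stat2 (50.5-fold) highest. These counts describe the lists, and no difference between lists was tested.

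Of 7 other genes with a CD225 domain, 6 (85.7%) had an H3K4me3 peak, against 66.4% of all protein-coding genes. In the ATAC-seq list, 5 of the 7 (71.4%) were marked, against 74.6%. The list is small, and no difference from these shares was tested. Over its genes with H3K4me3 the median fold was 24.7, against 30.5 over all marked coding genes. Prrt2 (40.6-fold), a presynaptic protein, and Syndig1l (35.3-fold) were highest, and Trarg1, a partner of glucose transporter vesicles, had a peak of neither list. Of 9 early germ cell genes, all had peaks of both lists, against 14468 of 21938 protein-coding genes. Their median was 17.8-fold, against 30.5 over all marked coding genes, with Nanos3 (42.6-fold) and Tfap2c (27.6-fold) highest. Ifitm1 and Ifitm3, known with these genes from the germ line, had 12.6 and 26.7, inside the range of that list (8.51 to 42.6). Of all marked coding genes, 7.65% were lower than its lowest gene and 80.2% lower than its highest. Most marked genes thus lie in this range, and it shows no likeness of its own.

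**Figure D5:**
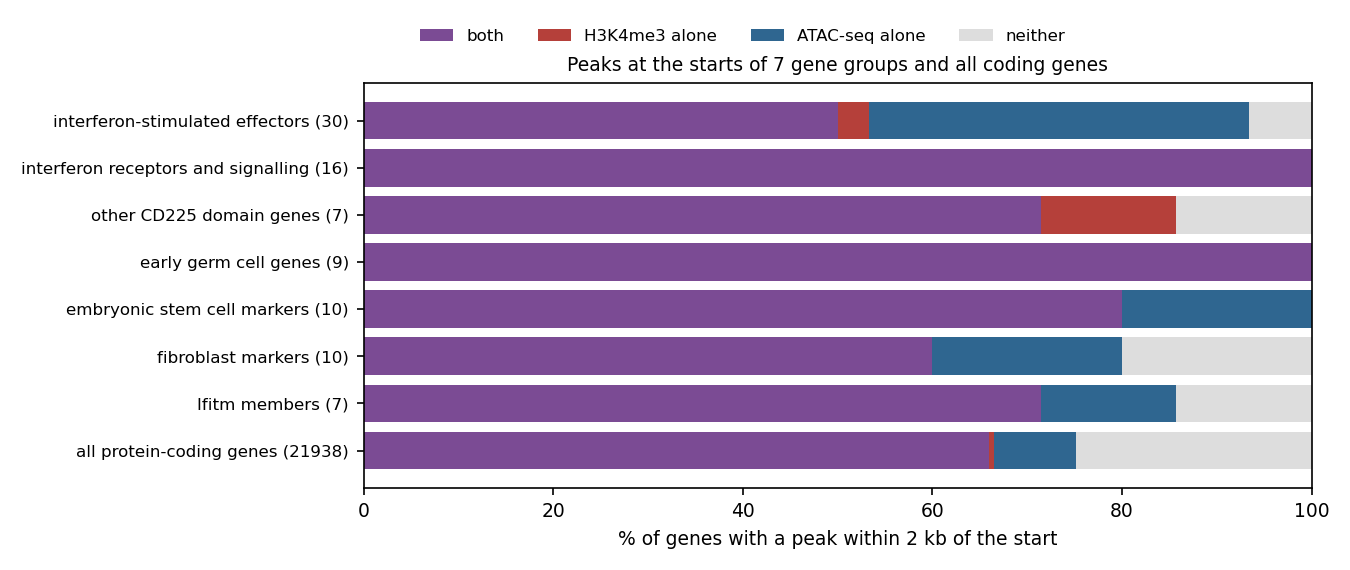
Share of genes (horizontal axis, % of each group, with the number of genes in parentheses) that have peaks of both lists, H3K4me3 alone, ATAC-seq alone or neither within 2 Kb of the start, for 6 gene lists, the Ifitm genes and all protein-coding genes. Peaks of both lists were at 5 of 7 Ifitm genes, at 15 of 30 interferon-stimulated effectors and at all 16 receptor and signalling genes, against 14468 of 21938 protein-coding genes.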

How the data were processed

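H3K4me3 ChIP-seq and ATAC-seq were made from F123 cells in 2 replicates each. For H3K4me3, the authors ran ENCODE's histone ChIP-seq pipeline at its defaults, and the deposited columns hold peak positions, a display score (not used here), a fold enrichment (a ratio over the caller's background), −log10 of p (not used) and q values and the summit. For ATAC-seq, the authors used Bowtie 1.1.2, MACS2 2.1.1.20160309 and bedtools 2.27.1 per the submitters' processing notes, after correcting read ends for the transposase offset, and deposited the pooled peaks that both replicates supported. The paper sets the cut of these ATAC-seq calls on the p value and not on a q value. The notes name mm10, and no peak ran past an mm10 chromosome. The use of the input, the threshold and the read length of the ChIP-seq list are not given in the sources used here.

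A peak belonged to a gene when any base of it lay within 2 Kb of the gene start (GENCODE M21), and 2 peaks were shared when they had 1 base in common. Sequences came from RefSeq GRCm38.p6, whose promoter table matched all 7 genes. Coding identity is over a global alignment of the longest coding sequences. The genes named were the 7 members, the coding genes of the window, in each list the 2 with the highest fold and the first 2 without a peak, and the 3 closest to Ifitm2 in peak measures. Members and lists were chosen with earlier results of these data known. The interval functions were tested on simulated data and checked against bedtools 2.31.1. The software was Biopython 1.88, matplotlib 3.10.9, scipy 1.17.1, pandas 2.3.3, numpy 2.4.6 and Python 3.11.15.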

Additional observations from a re-analysis of the deposited data

How the results depend on the processing

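Of 33 alternatives, 19 left the value near the main one, by within 1.5 times for counts and within the 95% Wilson interval of the main percentage. The rule for counts is loose for 7 genes, since losing or gaining a gene still counted as near. The interval over 21938 genes is narrow (65.8% to 67.1% for H3K4me3) and measures no effect of processing. Nearly all of the percentages fell outside it. With 1 Kb in place of 2 Kb, Ifitm10 lost both peaks, 65.2% of coding genes had H3K4me3 and 71% ATAC-seq. With 5 Kb, Ifitm5 gained an H3K4me3 peak (that of Ifitm2) and Ifitm6 an ATAC-seq peak, and the shares were 69.3% and 81.3%. Any transcript start gave 69.6% and 77.9%, and no change of the members. The peak midpoint gave 65.1% and 73.9%, and Ifitm1 lost its H3K4me3 peak. A −log10 q of at least 50 gave 61.5%, and the widest 50% of ATAC-seq peaks 69.8%, with the same Ifitm genes called. All annotated genes as background gave 36.4% and 51.2%. The window held 7 H3K4me3 peaks with flanks of 25 Kb and 21 with 100 Kb. No paired analysis was possible because the lists carry no values per replicate, and leaving out a replicate was not possible either. Depth is unknown, so a start without a peak is not shown to lack the mark.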
